A study of Homo sapiens with 6 samples.

Results

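This section describes 4 genes, the nuclear receptor genes NR4A1, NR4A2 and NR4A3 and the immediate-early gene ARC, out of 20476 genes counted in SW620 cells. SW620 is an established human line derived from a nodal metastasis of a colorectal tumour. ECM1, the gene of a secreted matrix glycoprotein, was stably knocked down by a short hairpin in 3 libraries (shECM1). The other 3 libraries came from cells with a negative control hairpin (shNC). Both groups are the same line with no other treatment named in the labels, and the number of hairpins or clones is not given there. The stated aim was to examine how ECM1 bears on the chemokine gene CCL20. The columns of the count table were matched to the groups by their initial letters and numbers, which is an inference. Were the letters to mean the reverse, all directions given here would turn round.

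NR4A1 and ARC were chosen because they were among the largest falls in this same comparison in earlier results, and NR4A2 and NR4A3 because they complete the NR4A family. The values of all 4 between shNC and shECM1 are therefore given as a description, with no test. All 4 were found in the table, and 3 passed the filter on low counts. NR4A3 did not.

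NR4A1 (also called Nur77), NR4A2 (Nurr1) and NR4A3 (NOR1) encode orphan nuclear receptors. Their ligand pocket is filled by bulky side chains, so their activity is set largely by how much of the protein a cell makes. Their genes are transcribed within minutes of growth factor, calcium or cyclic AMP signals, through factors such as CREB, SRF and MEF2, and without new protein synthesis. As proteins they bind DNA alone at a short element, the NBRE, or, for NR4A1 and NR4A2, as partners of the retinoid X receptors. ARC is best known from neurons, where synaptic activity induces it. Its protein descends from the gag protein of a retrotransposon, forms capsid-like shells and takes part in the internalisation of glutamate receptors. Fast, transient induction is what ARC and the NR4A genes share.

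RefSeq windows of the DNA just before a start site were matched by symbol for NR4A1 and NR4A3, 2 of the 4 genes. NR4A2 and ARC had no entry. The 250 bases before each listed start are shown because the CRE, the element through which CREB acts, is a textbook entry point for signals to these genes. Capitals mark the CRE core, TGACG, on either strand (build GRCh38.p14, plus strand, 5′ to 3′). The windows lie at chr9:99821635-99821884 for NR4A3, chr12:52022582-52022831 for the first NR4A1 start and chr12:52037465-52037714 for the second.
NR4A3: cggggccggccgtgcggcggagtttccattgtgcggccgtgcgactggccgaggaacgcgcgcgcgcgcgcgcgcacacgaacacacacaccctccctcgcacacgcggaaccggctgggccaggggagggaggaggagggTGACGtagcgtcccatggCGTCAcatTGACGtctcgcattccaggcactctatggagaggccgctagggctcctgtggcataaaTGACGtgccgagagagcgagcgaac
NR4A1 start 1: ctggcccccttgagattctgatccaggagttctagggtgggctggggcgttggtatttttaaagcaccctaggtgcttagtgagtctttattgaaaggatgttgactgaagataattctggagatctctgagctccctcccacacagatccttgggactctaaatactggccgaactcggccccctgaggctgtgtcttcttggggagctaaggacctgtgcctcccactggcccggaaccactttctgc
NR4A1 start 2: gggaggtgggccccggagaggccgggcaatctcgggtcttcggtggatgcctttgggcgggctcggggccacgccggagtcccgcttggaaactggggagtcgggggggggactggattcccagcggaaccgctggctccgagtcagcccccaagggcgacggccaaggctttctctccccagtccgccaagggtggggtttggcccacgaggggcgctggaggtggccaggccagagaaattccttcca

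The NR4A3 window held 4 CRE cores, beginning 109, 91, 83 and 25 bases before the start, the one at 91 on the minus strand. These distances are from the RefSeq start. GENCODE release 29 places its first NR4A3 start at 99821855, so the last 30 bases of the window, with the core at 25, lie within an annotated exon there. Neither NR4A1 window held one. Among all 35116 windows of this length, 21.2% held a core. The full palindrome TGACGTCA, which contains the core, was in 1.65% of windows. The NBRE (AAAGGTCA) was in 1.05%, the CArG box bound by SRF in 1.16% and TATAAA in 10.7%, each searched on both strands. None of these longer motifs was found in the 3 windows shown. GENCODE release 29 gives NR4A1 19 distinct transcript starts between 52022832 and 52056689, and counts per gene do not say which of them were in use. The NR4A1 windows end at 52022831 and 52037714, so the DNA just before the last of these starts was not searched. A match or its absence in these windows says nothing about whether a factor was bound.

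As background for the values, library totals ran from 9881720 to 16813951 counts. The control libraries were not alike. On the first principal component (58.1% of the variance) shNC replicate 2 lay at 8.64, beside the shECM1 libraries at 16.6 to 23.3, while shNC replicates 1 and 3 lay at -25.2 and -41.3. For the gene lists below, calls by the main test (edgeR) are given with and without this library. Unadjusted counts, DESeq2 calls on the lists and calls among neighbouring genes rest on all libraries. The targeted gene, ECM1, had control values of 38.8, 19.0 and 52.3 CPM, in replicate order, and knockdown values of 14.8, 13.6 and 8.41 CPM. CPM are counts scaled to a common library size with the trimmed mean of M values (TMM). Of 12 colorectal epithelial markers, 10 were tested, with EPCAM at 471.6 ± 25.8 CPM in shNC and 518.6 ± 30.4 in shECM1 (SD, n = 3 each). It was one of 3 with a positive log2 fold change, while 7 were negative and the median was -0.27. KRT19, a keratin, was at 2138 ± 555 CPM in the controls and 1556 ± 13.7 in the knockdown, and CDH1, E-cadherin, stood at -0.43. The intestinal factor gene CDX1 had 1 count in all.

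NR4A1 lies on GRCh38 chromosome 12, 52022832 to 52059507, plus strand (ENSG00000123358). It had 395, 182 and 627 counts in shNC replicates 1, 2 and 3, or 33.4, 13.1 and 44.9 CPM. In shECM1 replicates 1, 2 and 3 it had 75, 147 and 145 counts, or 7.45, 8.76 and 10.6 CPM. Every shECM1 library lay below every shNC library, but the lowest control, replicate 2, was close to the highest knockdown library. The 95% Poisson interval of shNC replicate 2, which covers counting error only, ran from 11.2 to 15.1 CPM, and that of shECM1 replicate 3 from 8.95 to 12.5, so these 2 overlapped.

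The mean NR4A1 level was 30.5 ± 16.1 CPM in shNC and 8.94 ± 1.59 in shECM1 (SD, n = 3 each), a fitted level 3.39-fold lower. The log2 fold change, shECM1 minus shNC, was -1.76 ± 0.35 (SE). It ranked 18 from the lowest among the 12576 genes tested. Since NR4A1 was chosen for its fall, nothing is read from that rank. The controls were spread far more widely than the knockdown libraries, with a coefficient of variation of 52.9% against 17.8%. Without shNC replicate 2 the fitted level was 4.32-fold lower (log2 fold change -2.11 ± 0.18), and without shNC replicate 3, the highest control, the log2 fold change was -1.36. Within its own library NR4A1 stood at percentiles 63.7, 44.6 and 70.7 of the genes with a count in shNC, and at 35.5, 39.2 and 41.0 in shECM1. With 1 value per gene and library, fewer cells with the transcript and less RNA per cell cannot be told apart.

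ARC lies on GRCh38 chromosome 8, 142611044 to 142614472, minus strand (ENSG00000198576). Its counts were 48, 24 and 65 in shNC and 7, 10 and 12 in shECM1, in replicate order. These are 4.06, 1.72 and 4.65 CPM against 0.695, 0.596 and 0.878 CPM. The groups did not overlap, and shNC replicate 2 was again the lowest control. Counting error is large here, since the 3 shECM1 libraries held 29 ARC counts together and the 3 controls 137. The Poisson interval of shNC replicate 2 was 1.10 to 2.56 CPM, and that of shECM1 replicate 3 was 0.454 to 1.53 CPM.

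Mean ARC levels were 3.48 ± 1.55 CPM in shNC and 0.723 ± 0.143 in shECM1 (SD, n = 3 each), a fitted level 4.78-fold lower. The log2 fold change was -2.26 ± 0.42 (SE) and ranked 5 from the lowest of the 12576 genes. ARC was chosen for its fall and passed the count filter through its control libraries, so nothing is read from that rank. Without shNC replicate 2 it was -2.58 ± 0.32, a 5.96-fold lower level. ARC was a weakly expressed gene in every library, at percentiles 22.5 to 31.2 of the genes with a count in shNC and 15.6 to 17.7 in shECM1.

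NR4A2 lies on GRCh38 chromosome 2, 156324432 to 156342348, minus strand (ENSG00000153234). Its counts were 87, 109 and 114 in shNC and 66, 83 and 88 in shECM1, which are 7.36, 7.83 and 8.16 CPM against 6.55, 4.95 and 6.44 CPM. The groups did not overlap here either, yet the gap between the lowest control and the highest knockdown library was smaller than the counting error of each. Means were 7.78 ± 0.402 CPM in shNC and 5.98 ± 0.897 in shECM1 (SD, n = 3 each), with a log2 fold change of -0.39 ± 0.19 (SE). The control libraries were close together, with a coefficient of variation of 5.17%. In contrast to NR4A1 and ARC, shNC replicate 2 was the middle control, and leaving it out gave -0.38. Without shECM1 replicate 2, the lowest library, the value was -0.26.

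NR4A3 lies on GRCh38 chromosome 9, 99821855 to 99866891, plus strand (ENSG00000119508). It had 0, 2 and 0 counts in shNC and 0, 4 and 1 in shECM1. A count of 0 allows up to 3 counts, which is 0.215 to 0.254 CPM in the shNC libraries and 0.179 to 0.298 CPM in the shECM1 libraries. NR4A3 was below this limit except in shECM1 replicate 2 (4 counts, 0.238 CPM), so no difference was detectable at this depth and no fold is given.

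Of the 3 members that passed the filter, all 3 had groups that did not overlap, with shECM1 lower, where this held for 13.2% of all genes tested. Because members were picked on this contrast, nothing is read from that count or from the counts that follow. The other reading of overlap, every shECM1 library above every shNC library, held for 11.2% of genes and for 0 members. A log2 fold change of -1 or lower was found for 2 of the 3, NR4A1 and ARC, and for 2.22% of all genes, and one of 1 or higher for 0 members and 0.215% of genes.

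**Figure D1:**
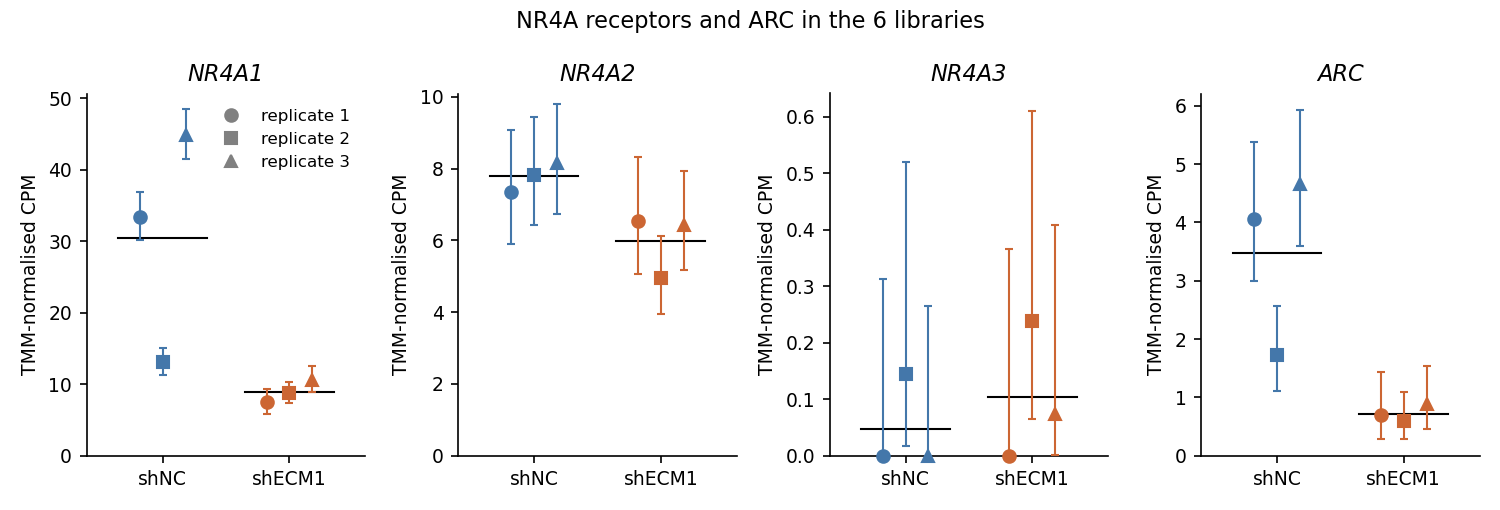
TMM-normalised CPM (vertical axis, linear from 0, with its own scale for each gene) of NR4A1, NR4A2, NR4A3 and ARC in 3 shNC and 3 shECM1 libraries. Points are libraries with 95% Poisson intervals, and horizontal lines are group means. For NR4A1 and ARC the control libraries are spread from 13.1 to 44.9 and from 1.72 to 4.65 CPM with replicate 2 lowest, while for NR4A2 the controls lie between 7.36 and 8.16 CPM.

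Levels of different genes can be compared only per length of transcript, here CPM per kilobase of all annotated exons. The exon lengths were 7.295 kb for NR4A1, 3.967 for NR4A2, 6.314 for NR4A3 and 2.991 for ARC. If the libraries read only transcript ends, as a kit named in the labels would, this division does not apply. In the controls, in replicate order, NR4A1 was at 4.58, 1.79 and 6.15 CPM per kb and NR4A2 at 1.86, 1.97 and 2.06. NR4A1 was therefore the higher of the pair in control replicates 1 and 3 and the lower in replicate 2. In shECM1 they were at 1.02, 1.20 and 1.45 and at 1.65, 1.25 and 1.62, with NR4A2 higher in 3 of 3 libraries and the ranges overlapping. ARC was below both in all 6 libraries, at 0.576 to 1.56 CPM per kb in shNC and 0.199 to 0.294 in shECM1. NR4A3 did not exceed 0.0377 CPM per kb.

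Ratios of raw counts within a library need no scaling between libraries. NR4A1 had 4.54, 1.67 and 5.50 counts for each NR4A2 count in the controls, in replicate order, and 1.14, 1.77 and 1.65 in shECM1. The groups overlapped, since shNC replicate 2 lay inside the shECM1 range. For NR4A1 against ARC the ratios were 8.23, 7.58 and 9.65 in shNC and 10.7, 14.7 and 12.1 in shECM1. Here shNC replicate 2 stood with the other controls, the groups did not overlap, and NR4A1 and ARC were lower together in that library. The shECM1 ratios rest on 7 to 12 ARC counts each. NR4A2 against ARC gave 1.81, 4.54 and 1.75 in shNC and 9.43, 8.30 and 7.33 in shECM1, with shNC replicate 2 between the groups.

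**Figure D2:**
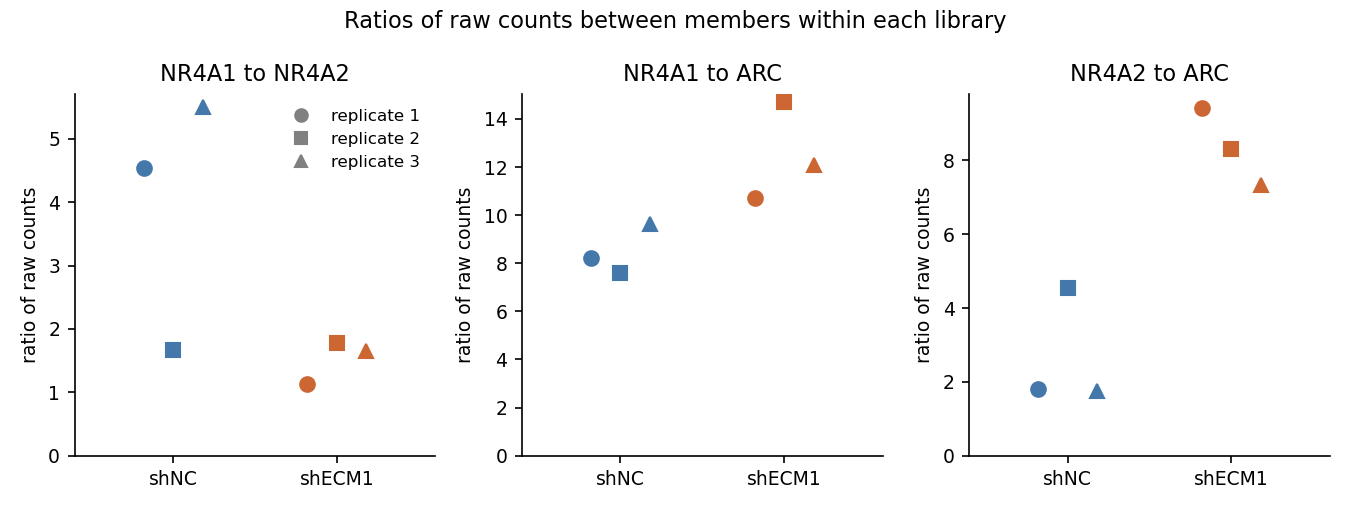
Ratios of raw counts between pairs of members (vertical axis, linear from 0) in each library, by group. Points are libraries. The NR4A1 to NR4A2 ratio of shNC replicate 2 (1.67) lies within the shECM1 range, while its NR4A1 to ARC ratio (7.58) lies with the other shNC libraries.

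Over the 6 libraries the Pearson correlation of log2 CPM was 0.976 between NR4A1 and ARC, 0.797 between NR4A2 and ARC and 0.683 between NR4A1 and NR4A2. These are descriptions over 6 libraries that fall into 2 groups. ECM1 and CCL20 had the same order of control libraries as NR4A1 and ARC, with replicate 3 highest and replicate 2 lowest, CCL20 at 24.6, 15.7 and 39.6 CPM. In shECM1, NR4A1 and ARC were highest in replicate 3, where ECM1 (8.41 CPM) and CCL20 (11.5 CPM) were lowest.

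The genes whose pattern was most like NR4A1 were DUSP6, a phosphatase that switches off ERK (r = 0.998), LGR6, a receptor for R-spondins, SUN2, a nuclear envelope protein, CLIP2, a microtubule-binding protein, and MAGED2. DUSP6 had a mean of 91.3 CPM in the controls and 56.1 in the knockdown. For ARC they were the kinase gene MAP3K10 (r = 0.999), the transcription factor gene FOXO3, the angiomotin gene AMOT, MIDN and the lipase gene ABHD4. For NR4A2 they were SIN3B, a corepressor scaffold (r = 0.992), GGA3, CNNM4, PITPNM3 and PROSER3. Over these 6 libraries such values arose for many genes with NR4A1 and ARC, and for fewer with NR4A2. A correlation above 0.95 was found with NR4A1 for 630 of 11523 genes and with ARC for 438 of 11524. With NR4A2 it was found for 24 of 11523.

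The rest of the nuclear receptor family was measured beside the NR4A genes. Of 45 other receptor genes, 29 were tested and 8 had 0 counts in every library. The tested receptors had 22 negative and 7 positive log2 fold changes and a median of -0.15, where all genes had a median of 0.01 and 48.6% were negative. The median was -0.26 without shECM1 replicate 3 and -0.08 with a correction for GC content.

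At a Benjamini-Hochberg adjusted p under 0.05, the edgeR quasi-likelihood test called 0 of the 29 receptors, as it called 0% of all genes in either direction. At an unadjusted p under 0.05, 8 were lower and 1 higher, against 14.2% and 8.31% of all genes. DESeq2 called 1 lower, against 5.13% of genes, and 0 higher, against 1.04%. Without shNC replicate 2 edgeR called 7 lower and 1 higher, against 14.1% and 9.73%.

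PPARD, a fatty acid receptor, had the lowest log2 fold change among the other receptors, -0.90 ± 0.26 (SE). It was at 31.2, 23.1 and 51.9 CPM in shNC and 20.3, 21.5 and 15.0 in shECM1, and was the receptor DESeq2 called (adjusted p = 0.0127). NR1D2, a clock repressor, had the highest among those of sufficient level, 0.56 ± 0.19, at 8.97, 12.0 and 7.44 against 14.0, 14.0 and 14.0 CPM. The receptors of highest level, ESRRA and PPARG, stood at 0.16 (0.27 without shNC replicate 2) and -0.31. RXRA and RXRB, partners of NR4A1 and NR4A2 chosen after their values were seen, stood at -0.53 and -0.18. RXRA was at 25.5, 19.0 and 28.5 CPM in shNC and 16.7, 16.1 and 17.8 in shECM1, so that its groups did not overlap. Groups apart with shECM1 lower were found for 7 of the 29 tested receptors and 13.2% of all genes. The groups of RXRB overlapped. RXRG had 0 counts in every library.

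**Figure D3:**
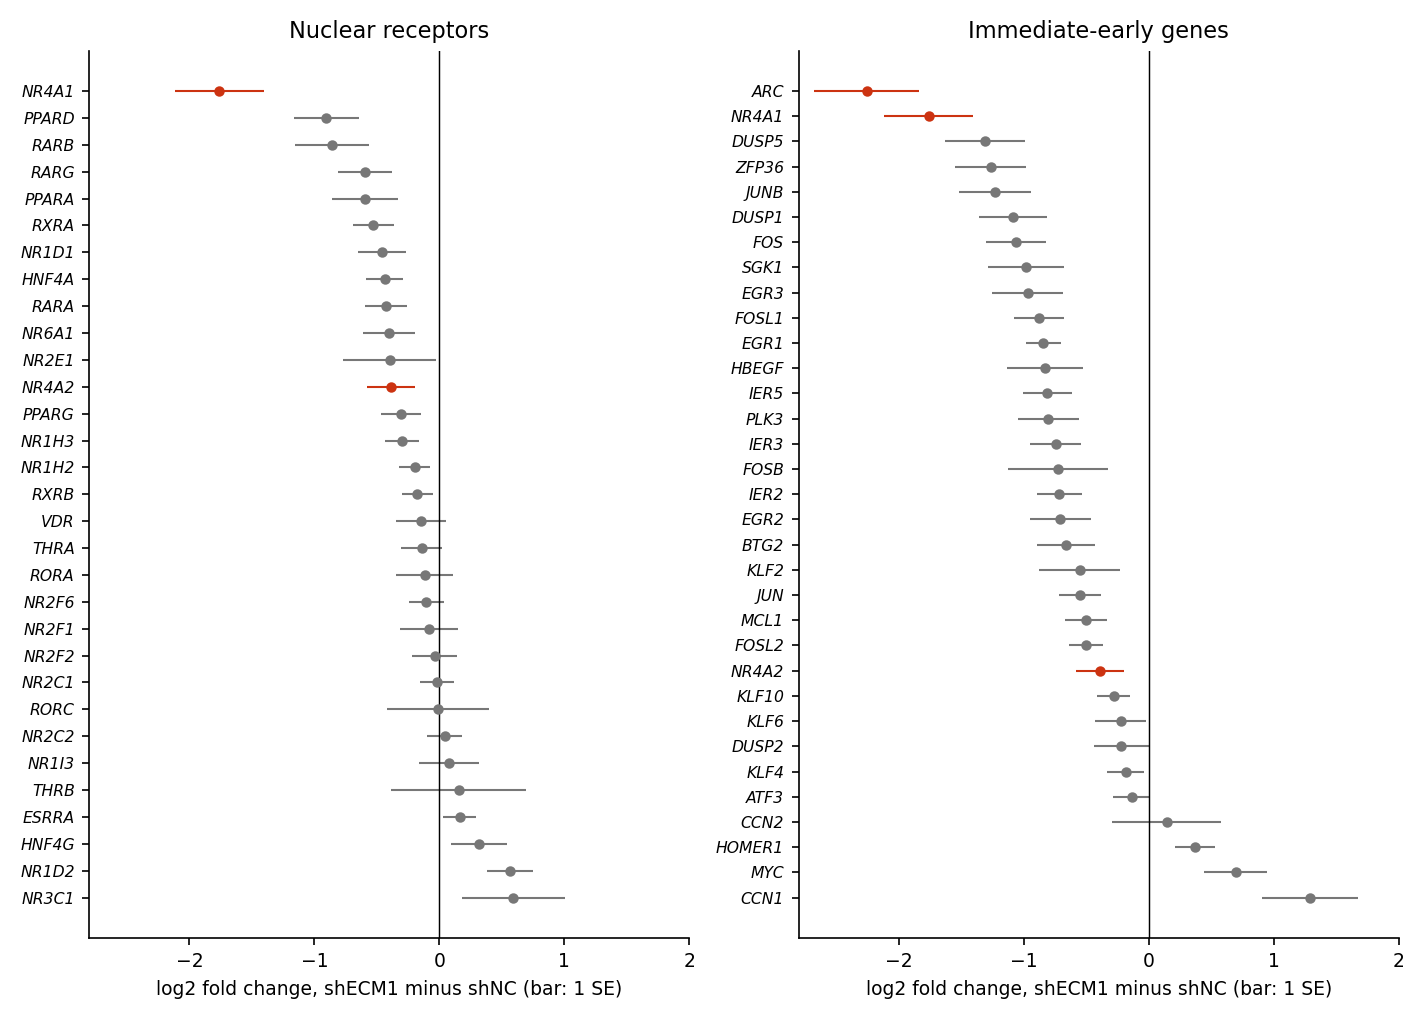
Log2 fold change (horizontal axis, shECM1 minus shNC, with 1 SE) of every tested nuclear receptor gene (left) and immediate-early gene (right), ordered by value. Grey points are the genes of the 2 lists and red points NR4A1, NR4A2 and, on the right, ARC. NR4A1 (-1.76) lies beyond the lowest other receptor, PPARD (-0.90), while NR4A2 (-0.39) lies among the others in both panels. NR4A1 and ARC were chosen for their falls in this comparison.

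Other immediate-early genes were mostly lower as well. Of 32, 30 were tested, 26 were negative and the median log2 fold change was -0.71. edgeR called 0 of them. At an unadjusted p under 0.05, 19 were lower and 3 higher (14.2% and 8.31% of all genes). DESeq2 called 12 lower and 0 higher (5.13% and 1.04% of all genes). Without shNC replicate 2, edgeR called 21 lower and 2 higher (14.1% and 9.73% of all genes). This list overlaps one already known to be lower in these libraries, so its direction is not independent evidence. ARC and NR4A1 had lower log2 fold changes than all 30, and NR4A2 a higher one than 21 of them. Because ARC and NR4A1 were chosen for their falls, nothing is read from their place in this order.

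DUSP5, an ERK phosphatase, had the lowest value of the 30, -1.31 ± 0.32 (SE), at 58.4, 27.4 and 85.9 CPM in shNC and 26.5, 24.3 and 18.7 in shECM1. IER3 and MYC had the highest levels. IER3 stood at -0.74, and MYC, at 0.69 ± 0.25, had the highest value of the better expressed genes. It was not called with all libraries, and was called at 1.12 without shNC replicate 2 (edgeR adjusted p = 0.000757). Chosen after their values were seen, HOMER1, like ARC a gene of the synapse with an activity-induced short form, stood at 0.37, at 9.73, 10.2 and 11.6 CPM in shNC and 15.4, 13.4 and 12.1 in shECM1. CCN1, an SRF and YAP target, stood at 1.29 on levels of 0.528 and 1.30 CPM. NPAS4, a gene induced by calcium in neurons, had 1 count in all libraries together.

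Transcripts of the factors that switch on the NR4A genes and ARC were measured too. Of 16 CREB pathway genes 15 were tested, with a median log2 fold change of -0.08, or -0.03 with the GC correction and -0.05 without shNC replicate 3. edgeR called 0, and at an unadjusted p under 0.05 there were 1 lower and 2 higher (14.2% and 8.31% of all genes). PRKACA was called lower and PRKAR2A higher without shNC replicate 2 (14.1% and 9.73% of all genes). EP300, a coactivator, and PRKAR1A, a regulatory subunit of protein kinase A, had the highest levels and stood at -0.10 and -0.18. PRKACA, its catalytic subunit, had the lowest value, -0.30, and PRKAR2A the highest, 0.34. CREB1 itself, chosen after its value was seen, had means of 27.6 ± 3.73 CPM in shNC and 25.4 ± 1.32 in shECM1.

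The SRF and MEF2 list, which also holds the class IIa deacetylases that restrain MEF2, had 17 of 19 members tested and a median of -0.20, or -0.11 with the GC correction. edgeR called 0, with 7 lower and 0 higher at an unadjusted p under 0.05 (14.2% and 8.31% of all genes). DESeq2 called 2 lower (5.13% of all genes), HDAC5 and HDAC7, both deacetylases. Without shNC replicate 2, edgeR called 4 lower (HDAC5, HDAC7, MEF2A and ELK1) and 1 higher (HDAC9), against 14.1% and 9.73% of all genes. HDAC5 was at 43.7, 28.9 and 49.7 CPM in shNC and 27.0, 24.2 and 22.8 in shECM1 (log2 fold change -0.73 ± 0.18 SE), with the groups apart. This held, with shECM1 lower, for 6 of the 17 and for 13.2% of all genes. HDAC9, of the same class, had the highest value, 0.31 (0.47 without shNC replicate 2), and HDAC4 and CABIN1, the genes of highest level, stood at -0.20 and -0.26. SRF, chosen after its value was seen, had means of 26.9 ± 3.86 CPM in shNC and 28.4 ± 6.09 in shECM1. MEF2C had 0 counts in every library.

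Known CREB targets stood on both sides of 0. Of 19, 9 were tested, 7 were negative and the median was -0.13. It was -0.06 without shECM1 replicate 3, -0.20 and -0.22 without shECM1 replicates 1 and 2, -0.25 with the GC correction and -0.24 with the filter of at least 50 counts. edgeR called 0, with 4 lower and 0 higher at an unadjusted p under 0.05 (14.2% and 8.31% of all genes). It called 3 lower, AREG, PER1 and PCK1, and 0 higher without shNC replicate 2 (14.1% and 9.73% of all genes). AREG, the EGF receptor ligand amphiregulin, was at 67.2, 38.3 and 122.6 CPM in shNC and 47.4, 43.2 and 20.8 in shECM1 (-1.04 ± 0.37 SE), and its groups overlapped. PER1, a clock gene, stood at -0.77 and was called lower by DESeq2 (adjusted p = 0.0169), against 5.13% of all genes. SIK1, a kinase that feeds back on CREB coactivators, had the highest value, 0.75 ± 0.38 (0.47 without shNC replicate 2), and was not called. PCK1, an enzyme of glucose synthesis chosen after its value was seen, stood at -2.27 ± 0.56 on 20, 11 and 46 counts in shNC and 3, 8 and 5 in shECM1.

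Protein partners and cofactors of the NR4A receptors were represented by 18 tested genes of 19. The median was -0.16, or -0.11 without shNC replicate 3, with 7 lower and 1 higher at an unadjusted p under 0.05 (14.2% and 8.31% of all genes) and 0 called by edgeR. With shNC replicate 2 left out, edgeR called 5 lower and 1 higher (14.1% and 9.73% of all genes). XPO1, the exportin that carries NR4A1 out of the nucleus, and KDM1A, a demethylase found with NR4A2 in the CoREST complex, had the highest levels and stood at 0.23 and 0.16. RPS6KA2, of the RSK kinase family that phosphorylates NR4A1, had the lowest value, -0.51.

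Genes reported as NR4A targets in other tissues were mostly weak or silent here. Of 20, 8 were tested and 4 had 0 counts in every library, among them POMC and G6PC1. The tested genes had 6 negative values and a median of -0.23, which was 0.01 without shNC replicate 2, -0.13 without shECM1 replicate 2 and -0.14 with the GC correction or the filter of at least 50 counts. edgeR called 0 of 8 with all libraries and 0 without shNC replicate 2 (lower 14.1% and higher 9.73% of all genes). At an unadjusted p under 0.05 there was 1 lower (14.2% of all genes), a share near that of all genes. That gene was ENO3, muscle enolase and the target of highest level, at 95.2, 99.0 and 128.3 CPM in shNC and 84.5, 87.6 and 89.0 in shECM1 (-0.31 ± 0.13 SE). UCP2, a mitochondrial carrier, was next in level at -0.24, and PYGM, muscle glycogen phosphorylase, had the highest value, 0.50 ± 0.31.

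Partners of the ARC protein had 14 of 19 members tested and a median of -0.17, with 10 negative (48.6% of all genes). At an unadjusted p under 0.05 there were 5 lower and 0 higher (14.2% and 8.31% of all genes), and edgeR called 0. Those 5, DLG4, DNM1, DNM2, DNM3 and SH3GL1, were called lower without shNC replicate 2 (14.1% of all genes). The median was -0.11 with the GC correction. DLG4, the postsynaptic scaffold PSD-95, had the lowest value, -0.95 ± 0.23 (SE), at 32.7, 20.6 and 42.8 CPM in shNC and 18.3, 16.9 and 14.7 in shECM1. The endocytic genes DNM2 and AP2M1 had the highest levels, at -0.41 and 0.01, and DNM1, chosen after its value was seen, stood at -0.71. DESeq2 called 2 lower, DLG4 and DNM1 (adjusted p = 0.00393 and 0.00674), against 5.13% of all genes. UBE3A, a ubiquitin ligase reported to act on ARC, had the highest value, 0.22. The neuronal partners GRIA1 and SH3GL2 had 0 counts in every library.

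Other genes derived from retrotransposon gag sequences are relatives of ARC in origin. Of 24, 9 were tested and 11 had 0 counts in every library, including the near-identical copies RTL8A, RTL8B and RTL8C, whose counts are uncertain. Of the tested genes 5 were negative and 4 positive, with a median of -0.07. That median was -0.14 without shNC replicate 2, -0.01 without shNC replicate 1, and 0.01 and 0.04 without shNC replicate 3 and shECM1 replicate 3. It was -0.04 without shECM1 replicate 1 and with no scaling factors. edgeR called 0, and 1 was lower at an unadjusted p under 0.05, a share near the 14.2% of all genes. That gene was ASPRV1, a skin protease, which edgeR called lower without shNC replicate 2 (adjusted p = 0.00131), against 14.1% of all genes. ASPRV1 was at 19.7, 10.7 and 20.3 CPM in shNC and 10.9, 10.0 and 10.0 in shECM1. ZCCHC18 had the highest value, 0.43 (0.69 without shNC replicate 2), and MOAP1 and PNMA1, the genes of highest level, stood at -0.07 and 0.01.

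The nearest 3 tested genes on each side of the 4 members were also examined, a choice made after the values were seen. With all libraries included, edgeR called 0 of the 6 neighbours of each member, and calls without shNC replicate 2 are not given for them. At an unadjusted p under 0.05, 2 were lower for ARC and 1 was higher for NR4A2 (14.2% and 8.31% of all genes), counts too small to read against those shares. Next to NR4A1, TAMALIN, which encodes a scaffold protein and lies 6.942 kb before it, stood at 0.43 ± 0.39 (SE), and ATG101, an autophagy gene 9.738 kb after it, at -0.06 ± 0.13. The 6 NR4A1 neighbours ran from -0.36 to 0.43. Next to ARC, JRK, at a gap of 42.987 kb, stood at 0.27 and ADGRB1, an adhesion receptor gene at 66.034 kb, at -0.61 ± 0.28. The 6 ARC neighbours ran from -0.84 (PTP4A3, a phosphatase) to 0.41. Neighbours of NR4A2 ran from -0.05 to 0.35, with gaps from 92.941 kb (GPD2) to 3675 kb (FMNL2), and those of NR4A3 from -0.14 to 0.17. No other gene row of the table overlapped a member in GENCODE release 29.

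The GC content of the members differed. Over the longest transcript it was 66.8% in ARC and 59.8% in NR4A1, at percentiles 98.2 and 83.4 of the tested genes, and 47.9% in NR4A2, at percentile 46.5. A correction for each library's trend on GC content gave log2 fold changes of -2.01 for ARC, -1.59 for NR4A1 and -0.41 for NR4A2. The corrected values kept their order.

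**Figure D4:**
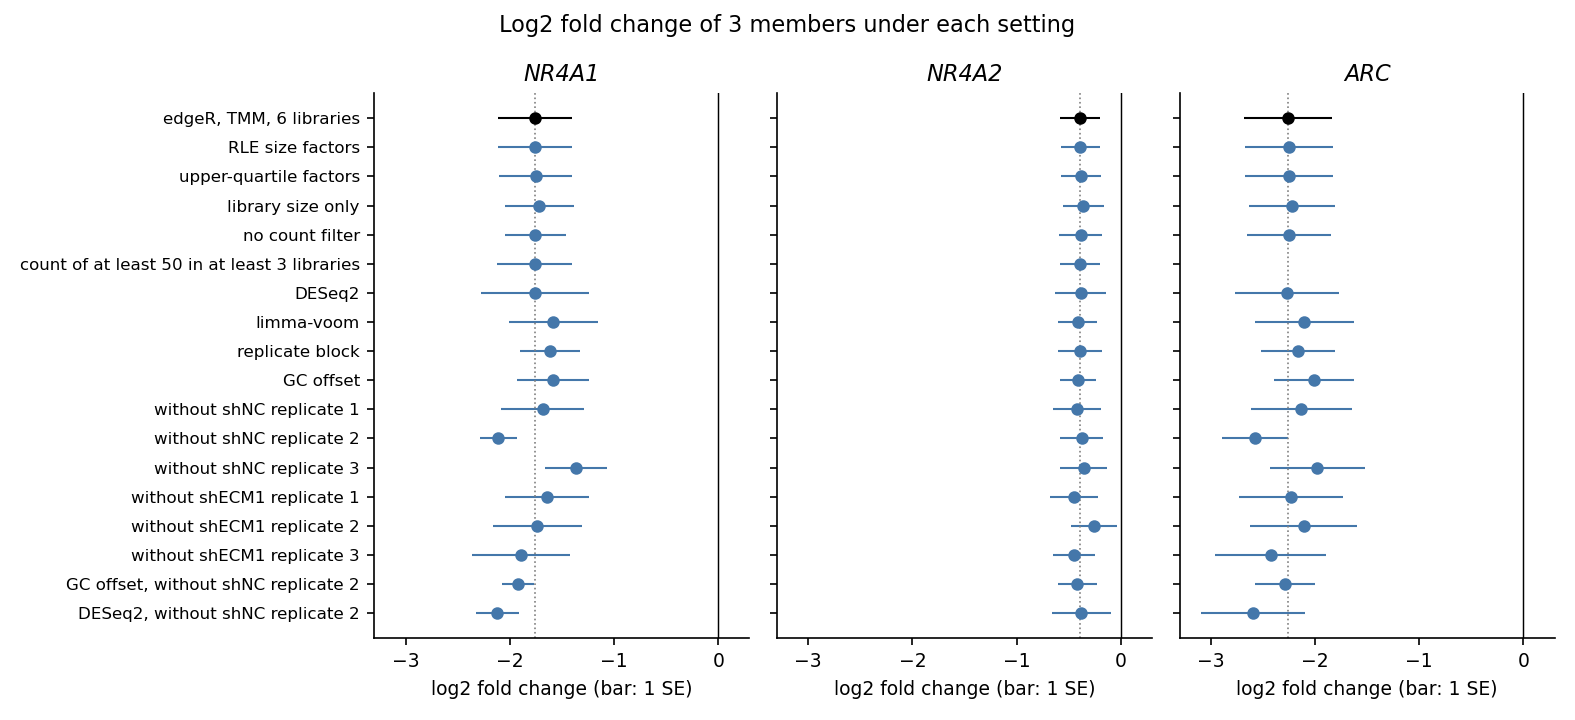
Log2 fold change (horizontal axis, shECM1 minus shNC, with 1 SE) of NR4A1, NR4A2 and ARC under each normalisation, filter, tool and set of libraries. The black point is the value over 6 libraries with edgeR and TMM, and the dotted line repeats it. Values run from -2.12 to -1.36 for NR4A1, from -0.45 to -0.26 for NR4A2 and from -2.59 to -1.98 for ARC, which fell below the filter of at least 50 counts.

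Markers of other cell types were summed in each library. Of 17 neuronal markers 6 were tested and 8 had 0 counts in every library, among them SNAP25, NEFL and DCX. Their sum was 116.7 to 137.0 CPM in shNC and 133.3 to 137.1 in shECM1, mostly from SYT1 and GAD1. Of 12 immune markers 4 were tested, and PTPRC and CD3E had 0 counts. The immune sum was 79.9 to 198.1 CPM in shNC and 51.4 to 80.0 in shECM1. It came mostly from CD68, a lysosomal protein gene, at 121.1 ± 53.2 CPM in the controls and 58.6 ± 15.6 in the knockdown, and from LYZ, lysozyme, at 10.9 and 5.57 CPM. The fibroblast sum was 23.5 to 35.5 against 16.7 to 20.9 CPM over 7 markers, with PDGFRA at 0, and the endothelial sum 9.73 to 12.2 against 8.04 to 9.22 over 5, with KDR at 0. The 12 epithelial markers summed to 12220 to 18021 CPM in shNC and 11867 to 13217 in shECM1. The sum of 7 heat shock genes, a class that responds to handling, was 1311 to 1719 CPM in shNC and 1670 to 1996 in shECM1. HSPA8 had the largest rise, from 388 ± 167 CPM in shNC to 636 ± 136 in shECM1 (SD, n = 3 each). Its groups overlapped, with shNC replicate 2 at 581 CPM and shECM1 replicate 1 at 527. HSPA1A, HSPA1B and DNAJB1 stood at -0.13, -0.08 and -0.01. Of the 7 log2 fold changes 3 were negative and 4 positive, with a median of 0.02, or 0.37 without shNC replicate 2. The part of these differences in the NR4A1 and ARC values was not tested.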

How the data were processed

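The authors deposited 1 table of raw counts, whole numbers per gene for 6 libraries. The tools named per the submitters' processing notes are STAR, fastp, Seurat, featureCounts and DESeq2, with builds GRCh38 and hg38. No role, version or strand setting is given in the sources used here. The labels' protocols describe total RNA and also droplet single-cell libraries, so a column may be bulk RNA or cells added up. Separate cultures are not stated for the replicates. The p-values then measure spread among these 6 samples only, and that spread may be technical.

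Symbols were found for 20462 of 20476 rows. GENCODE release 29 gave positions, exon lengths and GC for 20244. Promoter windows came from RefSeq (GRCh38.p14). The test was run with edgeR 4.0.16 under R 4.3.3: filterByExpr, TMM, quasi-likelihood test of shECM1 against shNC with no covariate, and Benjamini-Hochberg adjustment over 12576 genes (threshold 0.05). SE was taken as the log2 fold change over the root of its F statistic. Correlations used a prior count of 2. The procedure was tested on simulated data.

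The members and the 9 gene lists were chosen with earlier results of these data known. Named genes are the members, the 2 of highest level in each list, and the largest rise and fall with mean log2 CPM of at least 1. For each member the 5 most correlated genes are also named. Some genes the rule names are not reported here. Alternatives were RLE, upper-quartile and no scaling factors, 2 count filters, DESeq2 1.42.0, limma-voom (limma 3.58.1), the replicate number as a block, a GC offset (per-library loess), and leaving out each library.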

Additional observations from a re-analysis of the deposited data

How the results depend on the processing

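NR4A1, NR4A2 and ARC kept a negative log2 fold change under every alternative that gave a value, and each stayed within 1 SD of the replicates. ARC had none with at least 50 counts in at least 3 libraries. Leaving out 1 library at a time gave -2.11 to -1.36 for NR4A1, -0.45 to -0.26 for NR4A2 and -2.58 to -1.98 for ARC. The low depth of ARC and NR4A3 limits both.

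The number of genes called by edgeR was 0, with 2827 at an unadjusted p under 0.05. It was 505 with no count filter and 717 with DESeq2, and leaving out 1 library gave 0 to 3037, the latter without shNC replicate 2. Settings chosen after seeing the data, both without that library, gave 3274 with the GC offset and 2681 with DESeq2. limma-voom called 0.

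List medians under leave-one-out ran from -0.26 to -0.13 for nuclear receptors, -0.21 to -0.11 for NR4A cofactors, -0.09 to -0.05 for the CREB pathway, -0.24 to -0.15 for SRF and MEF2, -0.22 to -0.06 for CREB targets, -0.89 to -0.51 for immediate-early genes, -0.26 to 0.0052 for reported NR4A targets, -0.25 to -0.11 for ARC partners and -0.14 to 0.04 for gag-derived genes. With the GC offset the CREB pathway median was -0.034 and the SRF and MEF2 median -0.11. Without shNC replicate 2, the GC offset gave -0.038 for the CREB pathway, -0.31 for CREB targets and -0.00044 for reported NR4A targets, and DESeq2 gave -0.22 for NR4A cofactors and 0.010 for reported NR4A targets. The cause of these shifts was not tested.

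Deviations of same-numbered libraries had correlations of -0.0703, -0.0459 and -0.181, and those of other pairs ran from -0.0795 to 0.13. With 3 libraries per group, such values cannot exclude a culture or batch shared by libraries of the same number. With the replicate number as a block edgeR called 0 genes, and NR4A1, NR4A2 and ARC were at -1.62, -0.39 and -2.16.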
